A study of Homo sapiens with 6 samples.

Results

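The genes described here are 35 components of TGF-beta and activin signalling, grouped by role into 4 ligands, 4 latency proteins, 8 receptors, 7 SMADs, 6 inhibitors and 6 target genes. They were taken from a list of symbols, each matched to the probe sets that the array's annotation gives to that symbol alone, with the brightest probe set over the 6 arrays used per gene. All 35 were matched, out of 18417 genes with such a probe set, and all 35 lay above the filter that left 13812 genes for testing. The study measured total RNA of 3 established human glioblastoma lines, A172, T98G and U87MG, on Affymetrix Human Gene 1.0 ST arrays to look for targets of a microRNA. In each line, cells transfected with pre-miR338-5p (a microRNA precursor, here the mimic) were compared with cells given a negative control, and all RNA was taken 24 hours after transfection. There was 1 array per line and treatment, hence 3 mimic arrays and 3 control arrays, with no untransfected array analysed here. The labels do not say whether an array came from 1 culture or from a pool. The p-values for mimic against control rest on how much their difference varies over the 3 lines, and may hold technical variation. The limma test used also moderates each gene's variance with the variances of all tested genes.

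TGF-beta is secreted in a latent complex, held in the extracellular matrix by latent TGF-beta binding proteins (LTBPs). The released ligand brings a type II receptor together with a type I receptor, which phosphorylates SMAD2 and SMAD3. These join SMAD4 and act on target genes in the nucleus. Activins use the same SMADs through their own receptors, while SMAD1 and SMAD5 carry bone morphogenetic protein signals. SMAD6, SMAD7 and the pseudoreceptor BAMBI restrain the pathway, as do the nuclear corepressors SKI, SKIL, TGIF1 and TGIF2. In glioblastoma the pathway is known for its part in invasion, immune suppression and mesenchymal traits.

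The mature sequence of the transfected microRNA is shown because its seed, bases 2 to 8 (in capitals), sets which messenger RNAs it can pair with. The other arm of the same hairpin is given for comparison.
hsa-miR-338-5p: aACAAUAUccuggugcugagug
hsa-miR-338-3p: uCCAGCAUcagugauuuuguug
Both come from RefSeq on GRCh38.p14, where the 5p arm lies at chr17:81125923-81125944 and the 3p arm at chr17:81125887-81125908, each on the minus strand and 22 bases long. The hairpin lies in an intron of AATK. Of 2370 mature human microRNA names in that table, hsa-miR-338-5p was the only 1 with this seed. A matching site in a target transcript reads AUAUUGU. The 3' UTRs of the members were not analysed here.

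Values are log2 expression from RMA as the authors deposited them, and a change is mimic minus control. The median probe set value of an array was 5.06 at the lowest and 5.14 at the highest. Over probe sets, r was 0.992 to 0.993 between both arrays of a line and 0.954 to 0.962 between lines. In these bulk samples, a smaller share of cells that express a gene and less RNA per cell cannot be told apart. Of the glial and line markers, VIM (11.88 to 12.65) and CD44 (11.48 to 11.90) were high in every array. GFAP lay between 5.07 and 5.39, while the glial markers S100B (3.62 to 3.88), SOX2 (4.03 to 4.66) and OLIG2 (4.06 to 4.96) lay near or below the filter level of 4.28. SLC1A3, a glial glutamate transporter, lay at 3.95 and 3.85 in the mimic and control arrays of A172, 7.89 and 8.02 in those of U87MG, and 6.09 and 6.25 in those of T98G. NES, or nestin, lay between 5.16 and 7.29 and was highest in A172. Of the 16 tested markers of glia and of other cell types, 0 passed limma's adjusted threshold between mimic and control arrays. An unadjusted p under 0.05 was also found in 0 of them. Of all tested genes, 1.11% and 11.8% did so in the same order.

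The mimic was compared with the control to ask which components changed after transfection. TGFBR1, the type I receptor of TGF-beta, fell in mimic arrays, and it was the only member of 35 past the threshold of an adjusted p under 0.05 (limma with the cell line as a block). Among all 13812 genes, 0.789% were called lower and 0.319% higher. No member was called higher. At an unadjusted p under 0.05, 6 members were lower (TGFBR1, ACVR2A, SMAD5, BHLHE40, TGFBR3 and TGFBI), against 5.83% of all genes, and ACTA2 was higher, against 6.01% of all genes. The median change over the members was -0.07, and over all tested genes 0.01.

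TGFBR1 had levels of 7.98 (A172), 6.95 (T98G) and 8.93 (U87MG) with the mimic, against 8.55, 7.52 and 9.88 with the control in the same lines. Every line was lower with the mimic, with changes of -0.57 (A172), -0.57 (T98G) and -0.95 (U87MG), but the groups overlap because the lines start from different levels. The mean change was -0.70 ± 0.22 (SD, n = 3; 95% interval -0.93 to -0.46), which leaves 61.7% of the control level, and limma's adjusted p was 0.0326. It had the 54th lowest change of the 13812 genes. The call was lost without the A172 arrays (change -0.76, adjusted p = 0.0659) and without the U87MG arrays (change -0.57, adjusted p = 0.179). It was also lost with no filter on low values (adjusted p = 0.0674) and without the line block (adjusted p = 1.00), and over all alternatives the adjusted p lay between 0.000642 and 1.00.

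**Figure D1:**
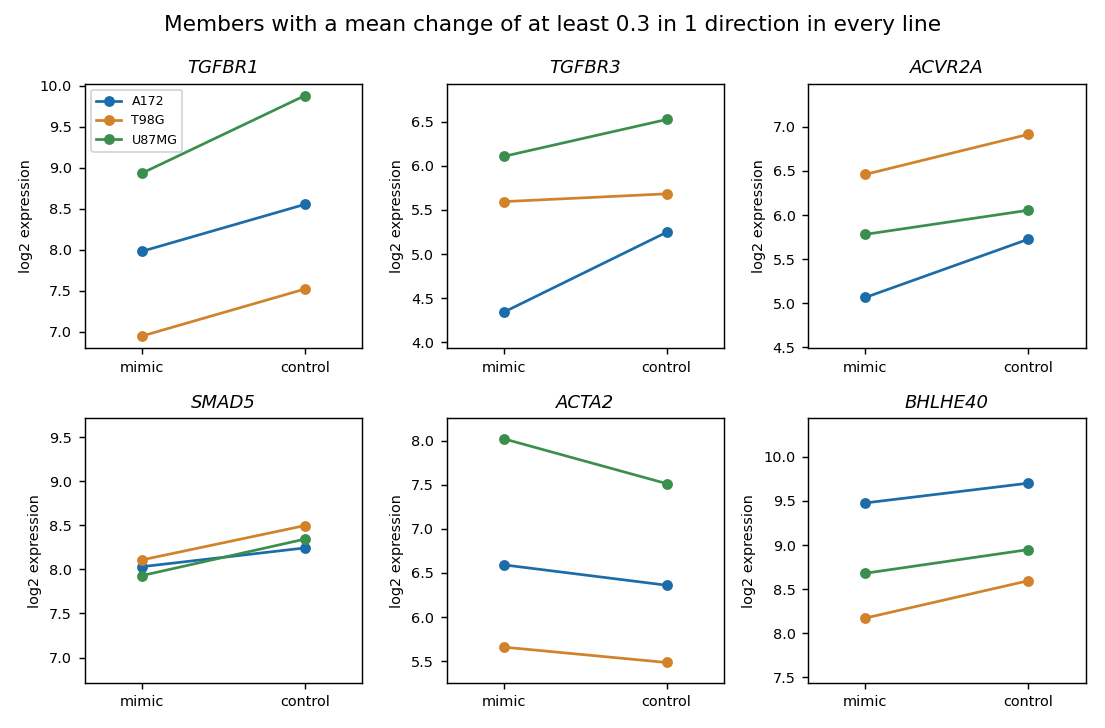
Log2 expression (vertical axis, each panel with its own range) of the 6 members whose mean change reached 0.3 and had 1 sign in all lines, in mimic arrays (left) and control arrays (right). Each line joins the 2 arrays of 1 cell line. TGFBR1, TGFBR3, ACVR2A, SMAD5 and BHLHE40 were lower with the mimic in all 3 lines and ACTA2 higher, and TGFBR1 was the only 1 of them past the adjusted threshold.

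Of the other receptors, 0 of 7 passed the threshold. ACVR2A, a type II receptor of activins, had levels of 5.06 (A172), 6.46 (T98G) and 5.78 (U87MG) with the mimic, against 5.73, 6.92 and 6.05 with the control. It was lower with the mimic in 3 of 3 lines, with a change of -0.46 ± 0.19 (SD, n = 3) and limma's adjusted p = 0.102. ACVR2A passed when the lowest 50% of genes was left out (adjusted p = 0.0275), with arrays centred on their medians (0.0472) and with a variance prior that follows expression (0.039). It passed in no other alternative.

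TGFBR3, or betaglycan, is a coreceptor that presents TGF-beta2 to the signalling receptors. Its levels were 4.34 (A172), 5.59 (T98G) and 6.11 (U87MG) with the mimic, against 5.25, 5.68 and 6.53 with the control. The change of -0.47 ± 0.41 (SD, n = 3; adjusted p = 0.281 with limma) rested mostly on A172, at -0.91, where the mimic array lay just above the filter level, and was -0.09 in T98G. ENG, or endoglin, a coreceptor better known from endothelium, was also lower in every line, at -0.17 ± 0.10 (adjusted p = 0.456 with limma). The remaining receptors had means above the control, from 0.06 for ACVR1B, a type I receptor of activins, to 0.14 for the activin type II receptor ACVR2B. ACVR1, a type I receptor used by bone morphogenetic proteins and activins, was at 0.12 and TGFBR2, the type II receptor of TGF-beta, at 0.13. ACVR1 and ACVR2B were higher in all 3 lines. The 95% intervals of these 4 receptors included 0, and the highest upper end was 0.34 for ACVR2B.

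**Figure D2:**
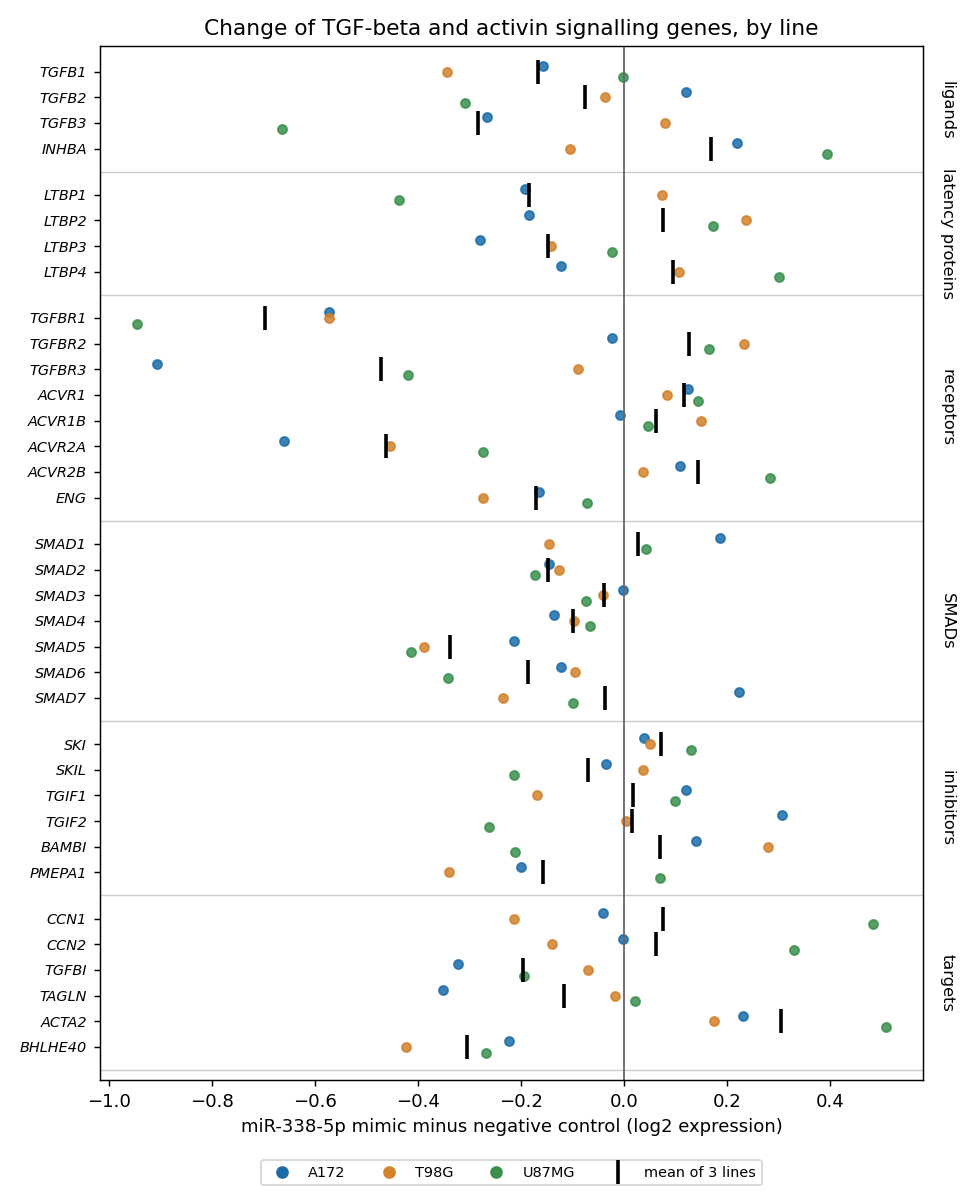
Mimic minus control in log2 expression (horizontal axis) for each of the 35 members, grouped by role. Points are single lines (1 mimic array and 1 control array each) and the black bar is the mean of the 3 lines. TGFBR1, at -0.70, lies furthest from 0, followed by TGFBR3 and ACVR2A, while most other members lie within 0.3 of 0.

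Among the 7 SMADs, 6 had a negative mean change, against 47.6% of all tested genes, and 0 passed the threshold. SMAD5, a carrier of bone morphogenetic protein signals, had levels of 8.03 (A172), 8.11 (T98G) and 7.93 (U87MG) with the mimic, against 8.24, 8.5 and 8.34 with the control. It was the only member whose mimic arrays all lay below all control arrays, a pattern found in 1.56% of all tested genes. No member had all mimic arrays above all control arrays, as 1.4% of all tested genes did. The change of SMAD5 was -0.34 ± 0.11 (SD, n = 3; adjusted p = 0.144 with limma). Of the alternatives, it passed only with the lowest 50% of genes left out (0.0458) and with a variance prior that follows expression (0.0204). SMAD6, an inhibitory SMAD, had 7.45 (A172), 6.51 (T98G) and 6.16 (U87MG) with the mimic, against 7.57, 6.60 and 6.50 with the control (change -0.19 ± 0.14, adjusted p = 0.446 with limma). All 3 lines were lower, and the groups overlap.

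SMAD2, which transmits TGF-beta and activin signals, had 7.68, 7.84 and 8.12 with the mimic in A172, T98G and U87MG, against 7.83, 7.96 and 8.29 with the control. That is a change of -0.15 ± 0.02 (SD, n = 3; adjusted p = 0.481 with limma), small but nearly equal in the lines. A second probe set of SMAD2 was at -0.28, with -0.09 (A172), -0.31 (T98G) and -0.45 (U87MG). SMAD4, the common partner, was at -0.10 and SMAD3 at -0.04, both lower in every line. SMAD1 was at 0.03 and SMAD7 at -0.04, each with lines on both sides of 0.

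Of the 4 ligands and 4 latency proteins, 0 passed the threshold, and their changes lay between -0.28 and 0.17. TGFB3 had levels of 4.35 (A172), 4.01 (T98G) and 4.99 (U87MG) with the mimic, against 4.62, 3.93 and 5.66 with the control. Both T98G arrays lay below the filter level, and the change of -0.28 ± 0.37 (SD, n = 3; adjusted p = 0.489 with limma) was largest in U87MG. TGFB1 had 9.08, 8.5 and 8.46 with the mimic in A172, T98G and U87MG, against 9.23, 8.84 and 8.46 with the control, a change of -0.17 ± 0.17 (adjusted p = 0.528 with limma). INHBA, the subunit of activin A, had 4.96, 5.29 and 4.75 with the mimic, against 4.74, 5.39 and 4.36 with the control, a change of 0.17 ± 0.25 (adjusted p = 0.608 with limma). Lines moved both ways for INHBA, and TGFB1 was all but level in U87MG. TGFB2 was at -0.08 ± 0.22.

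Among the latency proteins LTBP1, LTBP3 and LTBP4 differed most. LTBP1 was at -0.19 ± 0.25, lower in A172 and U87MG and higher in T98G. LTBP3 had 7.24 (A172), 7.09 (T98G) and 8.26 (U87MG) with the mimic, against 7.52, 7.23 and 8.28 with the control (-0.15 ± 0.13). LTBP4 had 6.24, 6.11 and 6.67 with the mimic, against 6.36, 6.0 and 6.37 with the control (0.10 ± 0.21). LTBP2 was at 0.07 ± 0.23. Limma's adjusted p was 0.548 or more in each of these 4 genes.

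Of the 6 inhibitors 0 passed, and their changes lay between -0.16 and 0.07. PMEPA1, a target gene that sequesters SMAD2 and SMAD3, had 7.5 (A172), 7.16 (T98G) and 5.33 (U87MG) with the mimic, against 7.70, 7.49 and 5.26 with the control (-0.16 ± 0.21, adjusted p = 0.60 with limma). SKI had 7.80, 7.85 and 7.98 with the mimic, against 7.77, 7.80 and 7.85 with the control (0.07 ± 0.05, higher in 3 of 3 lines). Its relative SKIL had 8.63, 7.86 and 7.62 with the mimic, against 8.67, 7.83 and 7.83 with the control (-0.07 ± 0.13). BAMBI was at 0.07, TGIF1 at 0.02 and TGIF2 at 0.02, with lines on both sides of 0 for each. The 4 other probe sets of TGIF1 had mean changes from 0.00 to 0.03.

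Target genes went both ways, and 0 of 6 passed the threshold. BHLHE40, a transcriptional repressor of the hypoxia and circadian systems, had levels of 9.48 (A172), 8.17 (T98G) and 8.68 (U87MG) with the mimic, against 9.70, 8.60 and 8.95 with the control. Its change was -0.31 ± 0.11 (SD, n = 3; adjusted p = 0.175 with limma), lower in 3 of 3 lines. Of the alternatives, it passed only with a variance prior that follows expression (0.0204). ACTA2, smooth muscle actin, had 6.59, 5.66 and 8.02 with the mimic in A172, T98G and U87MG, against 6.36, 5.48 and 7.51 with the control. It was higher in 3 of 3 lines, at 0.30 ± 0.18 (adjusted p = 0.246 with limma). TGFBI, a matrix protein named for its induction by TGF-beta, was lower in every line at -0.20 ± 0.13 (adjusted p = 0.418 with limma). TAGLN, the actin-binding protein transgelin, was at -0.12 ± 0.20, and the matricellular proteins CCN1 at 0.08 ± 0.36 and CCN2 at 0.06 ± 0.24. For CCN1 and CCN2, only U87MG was higher with the mimic, at 0.48 and 0.33.

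**Figure D3:**
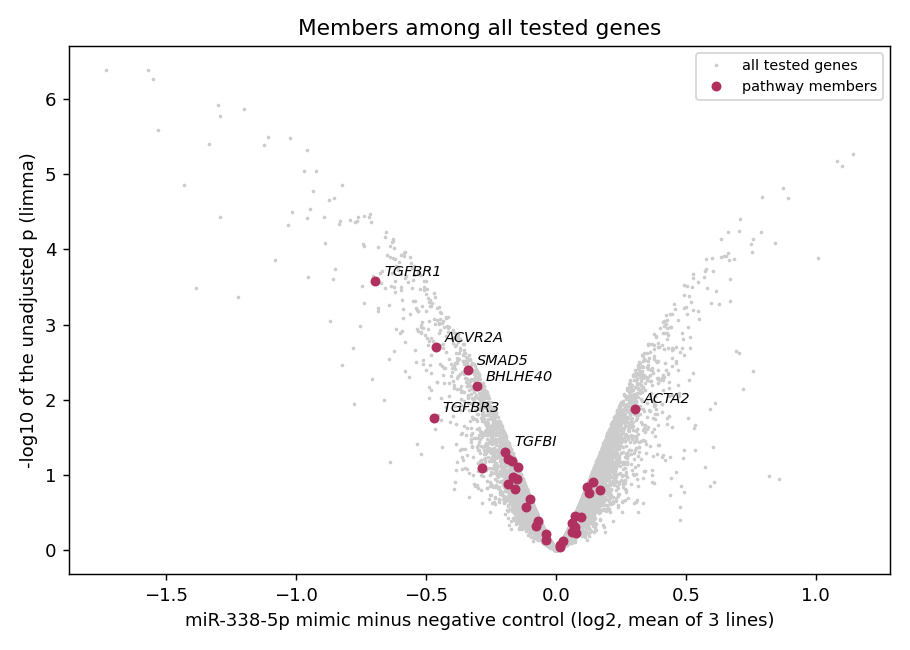
Mean change (horizontal axis, mimic minus control in log2) against the -log10 of limma's unadjusted p (vertical axis) for all 13812 tested genes in grey and the 35 members in red. The 7 members with an unadjusted p under 0.05 are named, 6 of them on the lower side.

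Over the members as a whole, 13 of 35 were lower in every line and 4 were higher in every line, against 15.8% and 18.5% of all tested genes. Of the 13, 4 were receptors and 5 were SMADs, and none was an inhibitor. A change of -0.3 or lower was found in 5 members, against 2.95% of all tested genes, and a change of 0.3 or higher in 1 member, against 2.53%. In single lines the median over the members was -0.12 (A172), -0.09 (T98G) and -0.07 (U87MG), and over all tested genes 0.00, -0.01 and 0.02 in the same order. These shares describe a list chosen with earlier results of these data known, so they were not tested.

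A further 89 genes of the pathway were fixed in 8 lists, of which 84 were measured and 77 tested. Of these, 0 were called in either direction by limma at the adjusted threshold, and at an unadjusted p under 0.05 there were 5 higher and 3 lower, against 6.01% and 5.83% of all tested genes. Their median change was 0.00. The smallest p among nuclear partners was that of RUNX2, a transcription factor that works with SMADs in bone. It had 5.89 (A172), 7.93 (T98G) and 7.07 (U87MG) with the mimic, against 6.12, 8.64 and 7.76 with the control. The change was -0.54 ± 0.27 (SD, n = 3; adjusted p = 0.106 with limma). RUNX2 passed with the lowest 50% of genes left out (0.0299), with arrays centred on their medians (0.0439), without A172 (0.0484) and with a variance prior that follows expression (0.0123). It passed in no other alternative. TFE3, a second nuclear partner, was at -0.29.

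KLF10, an early response gene of TGF-beta, was at -0.38, and CALD1, the actin-binding protein caldesmon, at 0.20. They had the smallest p-values among the further targets. ITGB8, an integrin subunit that releases active TGF-beta from its latent complex, was at 0.41, and FBN1, the microfibril protein that anchors latent complexes, at 0.18. Of the antagonists LEFTY2 was at 0.32 and FSTL1 at 0.10. In the list of further ligands and subunits INHA, the inhibin alpha subunit, was at 0.29 and GDF15 at -0.29. The ubiquitin ligases SMURF2 and SMURF1, which turn over SMADs and receptors, were at 0.23 and 0.13. TAB2 and TRAF6, which act in the branch through the kinase TAK1, were at 0.28 and 0.16. The receptor partners TGFBRAP1 and ZFYVE9 were at 0.11 and 0.10. Limma's adjusted p was 0.154 or more in each of these genes and TFE3. With a variance prior following expression, and in no other alternative, KLF10 (adjusted p = 0.0231 with limma), SMURF2 (0.0449) and TAB2 (0.0482) passed.

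The lines were then compared to ask how the pathway differs between them, with both arrays of a line and the treatment as an additive term. A172 was higher than T98G in 14 members and lower in 10, against 25.1% and 25.4% of all tested genes (50.5% together). A172 was higher than U87MG in 12 members and lower in 15, against 27.3% and 26.9% of all genes (54.2% together). U87MG was higher than T98G in 14 members and lower in 10, against 23.5% and 23.6% of all genes (47.1% together). Differences of at least 2 on the log2 scale were found in 3, 7 and 8 members in the same order, against 3.83%, 4.54% and 4.4% of all genes. In at least 1 pair of lines, 12 of 35 members differed by that much, against 7.89% of all genes. The type I and II receptors ACVR1B and ACVR2B, SMAD5 and SKI differed in no pair. The other 31 of 35 members differed in at least 1 pair, against 72.2% of all tested genes. The arrays of a line are not replicate cultures of it. These p-values rest only on the spread left between mimic and control arrays, pooled over the 3 lines, and on the variances of all tested genes.

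**Figure D4:**
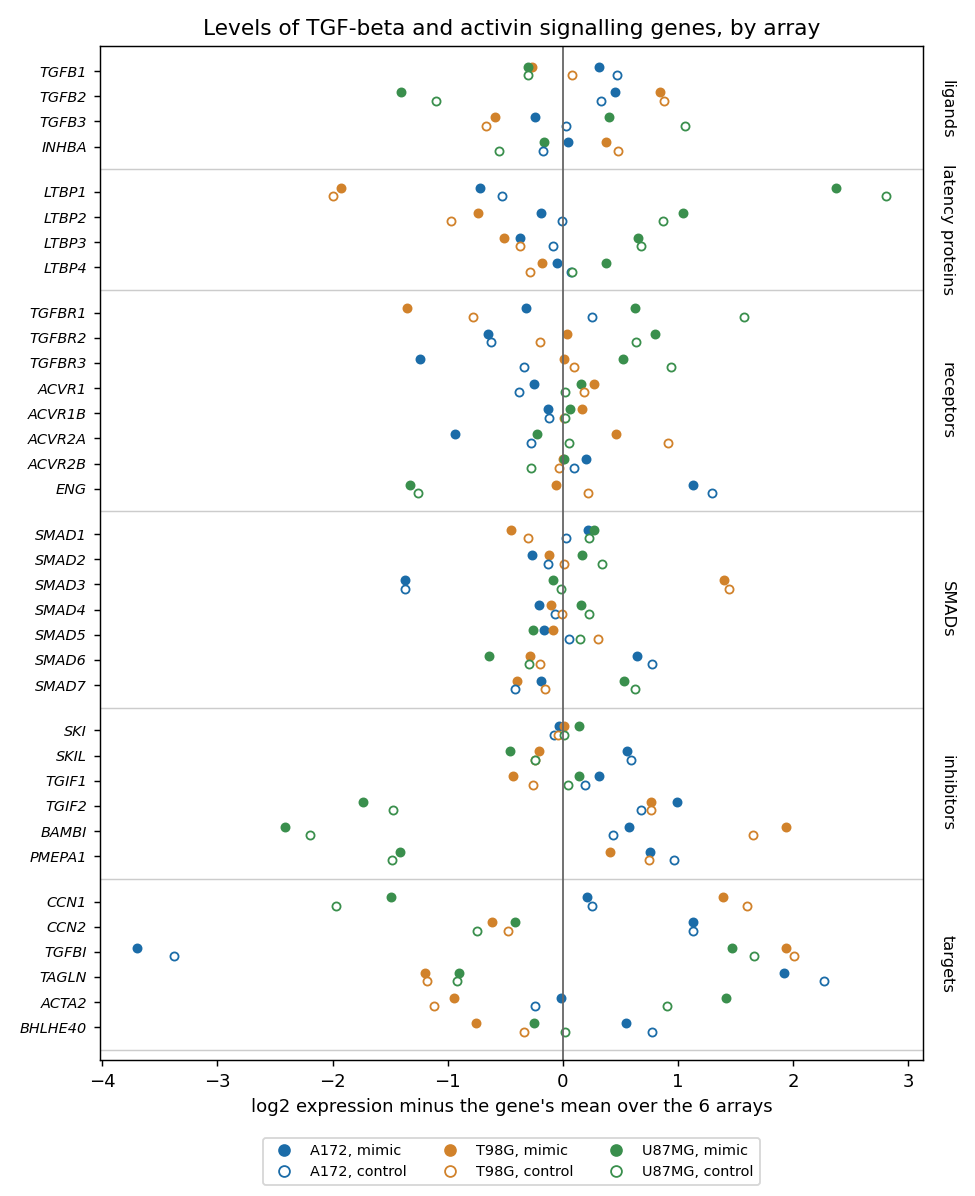
Log2 expression of each member in each array, as the distance from that gene's mean over the 6 arrays (horizontal axis), grouped by role. Filled points are mimic arrays, open points control arrays, and colours are lines. The arrays of a line lie close together in most members, and the lines lie far apart in TGFBI, LTBP1, BAMBI, TAGLN and CCN1.

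Among ligands, TGFB2 had levels of 9.85 and 9.72 in the mimic and control arrays of A172, 7.99 and 8.30 in those of U87MG, and 10.24 and 10.27 in those of T98G. U87MG was therefore lower than T98G by 2.11 on the log2 scale, or 4.33-fold, and A172 was higher than U87MG by 1.64. TGFB3 ran the other way, since U87MG was higher than T98G by 1.36, although both T98G arrays lay below the filter level. TGFB1 was highest in A172, by 0.49 over T98G and 0.69 over U87MG. INHBA was 0.79 lower in U87MG than in T98G. Limma's adjusted p was 0.00954 or less in each of these differences.

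All 4 latency proteins had their highest mean level in U87MG, as did 30.1% of all tested genes. LTBP1 had 6.14 and 6.33 in the mimic and control arrays of A172, 9.24 and 9.67 in those of U87MG, and 4.94 and 4.87 in those of T98G. The 3 lines are well apart, with U87MG 4.55 above T98G (23.5-fold, adjusted p = 1.42e-06 with limma) and A172 3.22 below U87MG. LTBP2 was higher in U87MG than in T98G by 1.81 and LTBP3 by 1.11. LTBP4 was higher in U87MG than in T98G by 0.46 (adjusted p = 0.0186 with limma), while A172 and U87MG differed by 0.22, which did not pass.

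TGFBR1 stood in the order U87MG, A172, T98G, and each neighbouring pair differed beyond the spread. A172 was 1.03 above T98G and 1.14 below U87MG, and U87MG was 2.17 above T98G (4.5-fold, adjusted p = 1.96e-05 with limma). With the mimic, TGFBR1 in U87MG was still above the control level of both other lines. TGFBR2 was also highest in U87MG, which was 0.80 above T98G, and A172 was 1.36 below U87MG. ENG was lowest in U87MG, with 10.21 and 10.38 in the mimic and control arrays of A172, 7.75 and 7.83 in those of U87MG, and 9.03 and 9.30 in those of T98G. A172 was 2.50 above U87MG (5.67-fold, adjusted p = 3.55e-06 with limma). ACVR2A was highest in T98G, with A172 1.29 below it and U87MG 0.77 below it.

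SMAD3 had levels of 7.46 and 7.46 in the mimic and control arrays of A172, 8.75 and 8.82 in those of U87MG, and 10.24 and 10.28 in those of T98G. The treatments were nearly equal within each line, while A172 was 2.8 below T98G (6.95-fold, adjusted p = 1.89e-06 with limma). SMAD2 and SMAD4 differed by at most 0.45 between any pair of lines. SMAD6 was highest in A172, by 0.95 over T98G and 1.18 over U87MG, and SMAD7 was highest in U87MG, by 0.86 over T98G.

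The inhibitors TGIF2, BAMBI and PMEPA1 were low in U87MG. BAMBI had 8.63 and 8.49 in the mimic and control arrays of A172, 5.64 and 5.86 in those of U87MG, and 9.99 and 9.71 in those of T98G, so that U87MG was 4.10 below T98G (17.1-fold, adjusted p = 2.1e-06 with limma). TGIF2 had 7.23 and 6.92 in A172, 4.51 and 4.77 in U87MG, and 7.01 and 7.01 in T98G, with A172 2.44 above U87MG. PMEPA1 was 2.31 higher in A172 than in U87MG and 2.03 lower in U87MG than in T98G. A172 and T98G did not pass the test in TGIF2 (0.07) or PMEPA1 (0.28, adjusted p = 0.093 with limma). SKIL was highest in A172, by 0.80 over T98G and 0.92 over U87MG.

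Target genes did not share an order of lines. TGFBI had 6.42 and 6.74 in the mimic and control arrays of A172, 11.58 and 11.78 in those of U87MG, and 12.05 and 12.12 in those of T98G. A172 was 5.51 below T98G, or 45.6-fold, and 5.1 below U87MG, the widest differences of any member (adjusted p = 4.56e-07 and 4.21e-07 with limma). TAGLN was the reverse, with 7.12 and 7.47 in A172, 4.30 and 4.28 in U87MG, and 4.0 and 4.02 in T98G. A172 was above T98G by 3.28 and above U87MG by 3.0, and since 3 of the 4 arrays of U87MG and T98G lay below the filter level, the sizes are uncertain.

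CCN1 had 8.20 and 8.24 in the mimic and control arrays of A172, 6.50 and 6.02 in those of U87MG, and 9.38 and 9.59 in those of T98G. U87MG was 3.23 below T98G (9.36-fold, adjusted p = 1.37e-05 with limma). CCN2 was highest in A172, by 1.68 over T98G and 1.71 over U87MG. ACTA2 was highest in U87MG, 2.20 above T98G (4.58-fold), with A172 1.29 below U87MG. BHLHE40 was highest in A172, by 1.21 over T98G and 0.78 over U87MG.

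**Figure D5:**
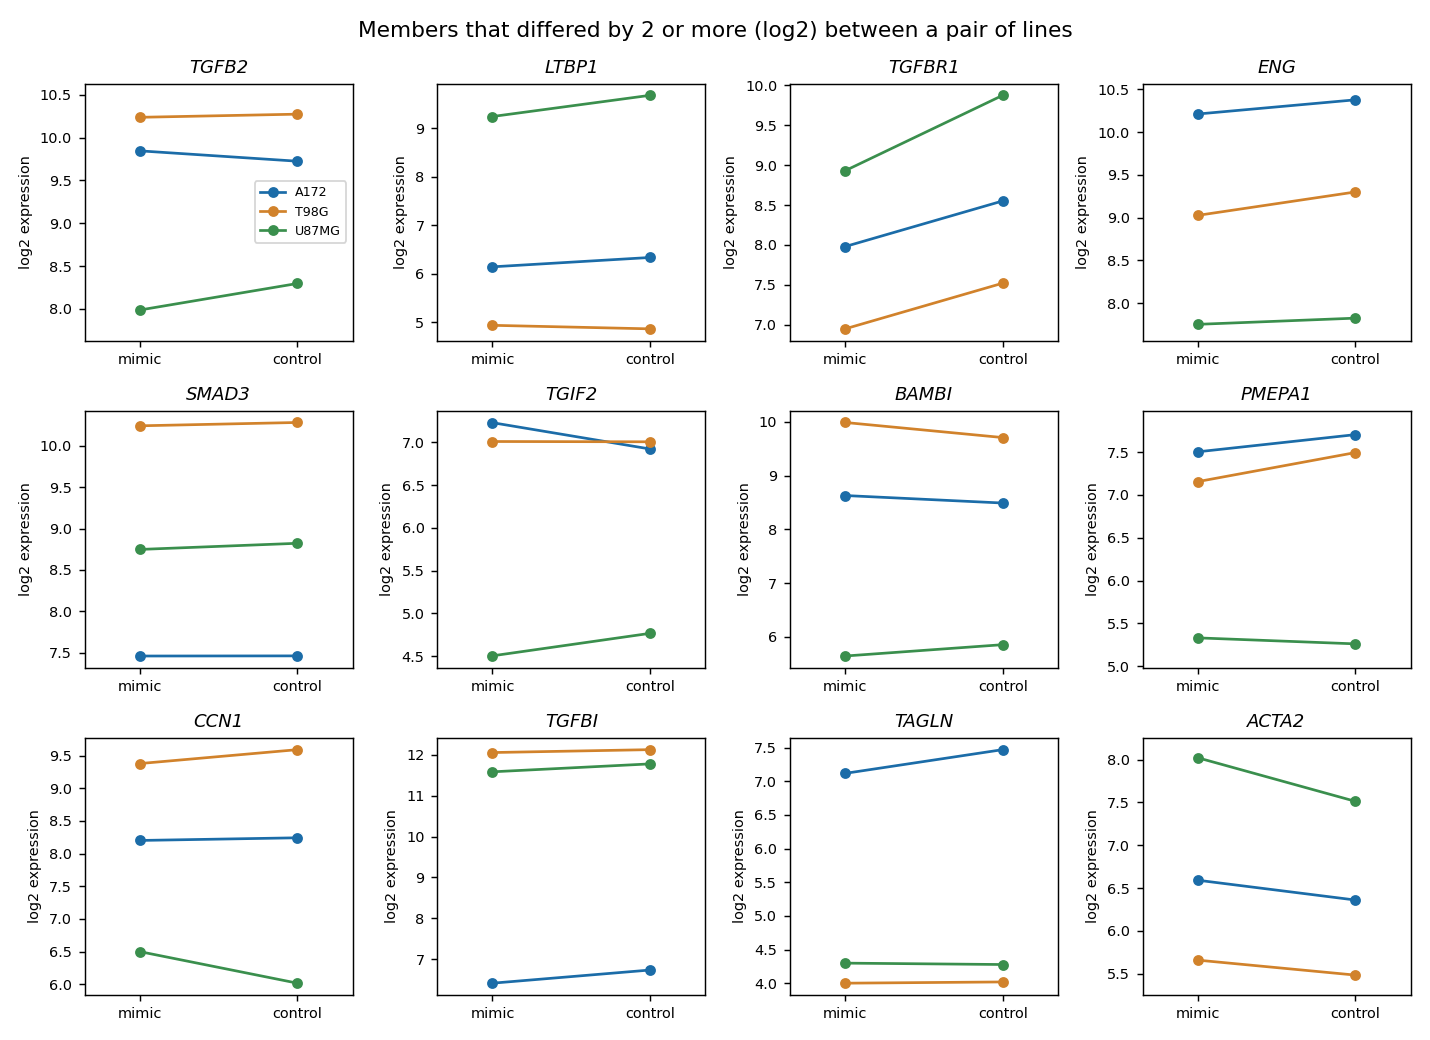
Log2 expression (vertical axis, each panel with its own range) of the 12 members that differed by 2 or more between at least 1 pair of lines, in mimic arrays (left) and control arrays (right). Each line joins the 2 arrays of 1 cell line. TGFBI is low in A172 alone, TAGLN is high in A172 alone, and TGFB2, ENG, TGIF2, BAMBI, PMEPA1 and CCN1 are lowest in U87MG.

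Markers of other cell types also differed between lines. Over the 4 smooth muscle and pericyte markers the summed log2 level was 28.5 and 28.0 in the mimic and control arrays of A172. It was 20.9 and 21.1 in those of U87MG, and 21.8 and 22.6 in those of T98G. Among the target genes TAGLN was high in A172, but ACTA2, smooth muscle actin, was highest in U87MG, with A172 1.29 below it. Of the 4 markers, DES and RGS5 were higher in A172 than in T98G, by 1.72 and 4.70, and than in U87MG, by 1.79 and 3.43. Both T98G arrays of RGS5 (3.31 with the mimic and 4.04 with the control) lay below the filter level, so the size of its difference from T98G is uncertain. PDGFRB was higher in A172 than in U87MG by 2.11 but lower than in T98G by 0.36. MYH11, the defining myosin of smooth muscle, lay between 4.52 and 4.82 in every array and differed in no pair. The 4 epithelial markers summed to 30.0 and 29.3 in A172, 21.9 and 23.1 in U87MG, and 22.4 and 22.9 in T98G, with KRT8 4.93 higher in A172 than in T98G, while CDH1 lay between 3.88 and 4.35. EPCAM had its highest mean level in U87MG, at 4.60 with the mimic and 4.98 with the control, against 4.68 and 4.18 in A172. That difference between U87MG and A172 did not pass (adjusted p = 0.198 with limma). The 4 endothelial markers summed to 15.4 and 15.1 in A172, 18.0 and 18.0 in U87MG, and 15.2 and 15.3 in T98G. Of these, KDR lay at 5.89 and 5.71 in the mimic and control arrays of U87MG and between 3.16 and 3.65 in the other lines, and was not tested. The 4 measured leukocyte markers summed to 15.5 and 15.4 in A172, 13.2 and 13.4 in U87MG, and 13.4 and 13.5 in T98G. Only CD14 was tested, at levels between 4.02 and 4.66, and A172 was above T98G by 0.33 and above U87MG by 0.52. CD3E and AIF1 lay below the filter level in all 6 arrays, PTPRC in 5 and CD14 in 3. The size of the difference in this sum is therefore uncertain. The part of such markers in the line differences was not tested.

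Stretches upstream of 4 members are shown because these genes differed by at least 2 between lines and have a single start site in the RefSeq promoter table. Each is the 250 bases before the start on the gene's own strand (GRCh38.p14). Capitals mark matches, on either strand, to CAGAC (bound by SMADs), TGANTCA (AP-1) or GGAATG (TEAD), and no matches overlapped.
TGFB2: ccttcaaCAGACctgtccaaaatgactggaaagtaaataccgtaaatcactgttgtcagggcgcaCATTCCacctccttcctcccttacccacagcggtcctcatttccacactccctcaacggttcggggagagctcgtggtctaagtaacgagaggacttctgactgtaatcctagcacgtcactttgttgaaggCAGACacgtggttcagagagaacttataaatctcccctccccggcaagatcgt
ENG: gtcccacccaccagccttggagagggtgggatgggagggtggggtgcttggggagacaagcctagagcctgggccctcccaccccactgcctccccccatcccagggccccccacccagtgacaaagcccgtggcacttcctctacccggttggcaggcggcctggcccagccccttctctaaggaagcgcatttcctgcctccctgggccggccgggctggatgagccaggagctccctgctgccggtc
BAMBI: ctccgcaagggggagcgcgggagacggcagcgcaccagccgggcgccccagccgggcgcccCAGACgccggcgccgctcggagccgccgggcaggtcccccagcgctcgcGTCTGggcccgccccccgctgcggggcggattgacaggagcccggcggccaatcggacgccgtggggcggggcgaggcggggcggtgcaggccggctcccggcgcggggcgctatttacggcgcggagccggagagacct
TGFBI: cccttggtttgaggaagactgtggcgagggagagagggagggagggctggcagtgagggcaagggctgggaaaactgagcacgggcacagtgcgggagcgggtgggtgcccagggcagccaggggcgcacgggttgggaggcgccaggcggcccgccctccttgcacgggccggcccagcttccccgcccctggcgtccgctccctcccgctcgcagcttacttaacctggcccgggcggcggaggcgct
They lie at chr1:218345086-218345335 on the plus strand (TGFB2), chr9:127854659-127854908 on the minus strand (ENG), chr10:28677271-28677520 on the plus strand (BAMBI) and chr5:136028738-136028987 on the plus strand (TGFBI). TGFB2 held CAGAC at positions -243 and -53 from the start and GGAATG at -185. BAMBI held CAGAC at -189 and -140. ENG and TGFBI held none of the 3 motifs in this window. Among 35116 such windows of all genes, 38.0% held CAGAC, 6.57% held TGANTCA and 11.9% held GGAATG. TGFB2 and BAMBI, which have CAGAC, were both lowest in U87MG, as was ENG, which has none. The G and C content was 50.4% in TGFB2, 69.6% in ENG, 81.2% in BAMBI and 72.8% in TGFBI.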

How the data were processed

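Log2 values of 33297 probe sets on 6 arrays were deposited by the authors, made by RMA with the package oligo in R 3.0.1, per the submitters' processing notes. The sources used here give no filters, scan dates or batches, and the scanner files were not used. RMA forces the arrays' probe values to 1 common distribution, so a shift of most genes in 1 direction would be largely removed. The number of arrays limits the precision.

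The platform annotation gave 1 symbol to 19460 probe sets, several to 1754 and none to 12083. Identifiers of 19429 of the first kind matched RefSeq (GRCh38.p14), used for names. Of 18417 genes, 769 had several probe sets, and the brightest was kept. Genes in the lowest 25% by mean (under 4.28) were left out.

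Mimic and control arrays were compared with limma 3.58.1 in R 4.3.3, two-sided, with the cell line as a block and Benjamini-Hochberg adjustment over all 13812 genes (threshold 0.05). Each array's line is in the labels, and lines therefore pair the arrays. Deviations from the group means correlated within a line at r = 0.958 (A172), 0.951 (T98G) and 0.958 (U87MG). The test had 2 residual degrees of freedom, 6.56 with the variance prior. Lines were compared in 3 pairwise contrasts with the treatment as an additive term. Both fits were tested on simulated data with known changes. Intervals are 95% intervals of the moderated fit.

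Values in every array are given for members past the threshold, for the 3 of largest change in each role, for those whose mean change reached 0.3 with 1 sign in all lines, and for those that differed by 2 or more between lines. Of the other pathway lists, genes past the threshold and the 2 of smallest p per list are named. The members and all lists were chosen with earlier results of these data known. Alternatives changed the filter, the scaling between arrays, the variance prior, the probe set rule, the block and the arrays used.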

Additional observations from a re-analysis of the deposited data

Results flagged for a closer look

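In 4 members the response had opposite signs in different lines, by at least 0.2 on the log2 scale each way. That minimum was chosen after the data were seen, and the share of all tested genes that meet the same rule was not counted. With 1 mimic and 1 control array per line, none of these differences between lines was tested. SMAD7, an inhibitory SMAD, was at 0.22 in A172 and -0.24 in T98G. TGIF2, a corepressor, was at 0.31 in A172 and -0.26 in U87MG. BAMBI, the pseudoreceptor, was at 0.28 in T98G and -0.21 in U87MG. CCN1, a target gene, was at 0.48 in U87MG and -0.21 in T98G.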

How the results depend on the processing

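Counts of genes called between mimic and control depended on the settings. Over all genes, 15 were called higher and 45 lower with no filter, 123 and 237 with the lowest 50% left out, and 170 and 301 with a variance prior that follows expression. With arrays centred on their medians 179 were called lower. Members called lower numbered 0 with no filter, 3 with the lowest 50% left out, 2 with centred arrays and 4 with the variance prior that follows expression. Of the other pathway genes, 1, 1 and 4 were called in the last 3 of these settings. With no replicate block, where the cell line was left out of the model, 0 genes were called higher and 0 lower, 0 members were called, and TGFBR1 kept its change of -0.70 with limma's adjusted p = 1.00. With no filter its change was also -0.70 (adjusted p = 0.0674). Over all genes, 10 were called higher and 54 lower without A172, 39 and 78 without T98G, and 0 and 0 without U87MG. Leaving out 1 line at a time gave 0 to 1 members lower, 0 to 1 other pathway genes, and a change of TGFBR1 from -0.76 to -0.57. A fit without 1 line has 1 residual degree of freedom, and the share of a lost call that this explains was not tested. The TGFBR1 change was negative in every alternative, and the median change over the members lay between -0.09 and -0.06.

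Signs turned in some small changes, none past the threshold. With centred arrays TGIF2 was at -0.000232, and A172 minus U87MG in SMAD5 at -0.0575. With repeated quantile normalization A172 minus T98G in SKI was at 0.0136. Leaving out 1 line at a time, TGIF2 ranged from -0.13 to 0.16, TAGLN from -0.185 to 0.00103, BAMBI from -0.0357 to 0.21, TGFBRAP1 from -0.00672 to 0.23, TGFB2 from -0.17 to 0.0421, LTBP4 from -0.00801 to 0.20, SKIL from -0.12 to 0.000741 and CCN1 from -0.13 to 0.22. Counts of members and genes called between lines stayed within 1.5 times the reported count in every alternative run. Between lines, TGFB3 did not pass for A172 against T98G with no filter (adjusted p = 0.0604). PMEPA1 passed for that pair with repeated quantile normalization (0.0462), and INHBA for A172 against U87MG with T98G left out of the fit (0.0407). No alternative background correction was run, since only summarized values were used.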
